A study of Mus musculus with 14 samples.

Results

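The wild-type oocyte baseline was described from the 4 single-oocyte RNA-seq libraries whose genotype label reads Lsd1/Kdm1a wt/wt, among 14 oocyte libraries in the series. Their labels give the strain C57BL/6J, and the 10 libraries of the other genotypes were not used. The study examined the histone demethylase Kdm1a (Lsd1) supplied by the mother to the early embryo. Each library was made from 1 cell by poly(A)-primed cDNA amplification, a method that copies up to 3 kb from the 3′ end of a transcript. Reads were aligned to the mouse genome build mm10 and counted per RefSeq gene. The oocytes are called wt1, wt3, wt4 and wt5 after the numbers in their descriptions, and groups of values follow that order. The study calls its oocytes ovulated, whereas the labels say only mouse oocytes and carry a protocol text that speaks of two-cell embryos. No label names a female, an age, a hormone treatment or a transgene for the wt/wt cells. Nothing says whether the oocytes came from separate females, so the oocytes were not treated as replicates of a condition. Each SD is the spread from cell to cell. Since each cell gave 1 library, this spread includes capture and amplification, which cannot be told apart from differences between the cells.

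A growing oocyte transcribes and stores messenger RNA for the egg and the early embryo. Transcription stops near the end of growth, and meiotic maturation and the first cleavage then run on the stored pool, through its timed translation, deadenylation and decay. The pool is known for transcripts of the egg coat, of signals to the follicle, of cell cycle arrest and of chromatin reprogramming.

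The oocyte wt5 stood apart from the other 3. It differed 2-fold or more from the median of the other oocytes in 19.7% of the 4013 genes with a mean of 20 CPM (counts per 1000000 counts of the library) or more. The same share was 8.05% to 15.4% for the others. Spearman correlations across the 12877 genes with a count, which are not independent replicates, averaged 0.859 in the pairs with wt5 and 0.876 in the pairs without it. Results that rest on wt5 are given with and without it.

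The labelled cell type was checked against its markers. Spin1 encodes a Tudor-domain reader of histone methylation and lies at chr13:51100880-51152546 on the plus strand. It was measured at 25109, 13475, 16726 and 12684 CPM. Bcl2l10, a Bcl2 family gene at chr9:75347758-75351632 on the plus strand, was at 12710, 14229, 11483 and 16252 CPM. These markers ranked among the 4 most counted genes of every oocyte, Spin1 at ranks 1, 2, 1 and 4 and Bcl2l10 at ranks 4, 1, 2 and 3. Gdf9, which encodes a growth factor the oocyte secretes to the follicle, lies at chr11:53431023-53437904 on the plus strand and was at 8120.4, 10892, 10193 and 21082 CPM. Its ranks were 7, 3, 4 and 1, with wt5 well above the other 3 oocytes. Without wt5 the mean of Gdf9 was 9735 ± 1442 CPM (SD, n = 3), against 12572 ± 5794 CPM over all 4. The oocyte markers Zp1, Zp2, Zp3, Bmp15, Nlrp5, Mos and Zar1 also had counts in all 4 oocytes, whereas Figla, a transcription factor of early follicles, had a single count, in wt4.

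Library totals were 1375187 counts in wt1, 1740242 in wt3, 1892015 in wt4 and 1637050 in wt5. A count of 0 allowed up to 2.18, 1.72, 1.59 and 1.83 CPM (3 counts of the total). Counts are PCR reads without molecular identifiers, so such floors and all intervals cover counting error only. At least 1 count was found for 10289 genes in wt1, 10087 in wt3, 9871 in wt4 and 10505 in wt5. Of the 24064 genes in the table, 12877 had a count in any oocyte, and of these 7786 (60.5%) had one in all 4. The genes shared by all 4 oocytes held 99.5% of the counts. By contrast, the 2125 genes counted in a single oocyte held 0.0664%. The highest count among those single-oocyte genes was 20, for Oas1f, a member of the antiviral oligoadenylate synthetase family, in wt5. Genes seen in 1 cell alone were thus sparsely counted.

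Counts were concentrated in few genes. The 10 most counted genes of each oocyte took 11.4% of wt1 (95% Clopper-Pearson interval 11.3 to 11.4), 9.82% of wt3 (9.78 to 9.87), 9.15% of wt4 (9.11 to 9.19) and 12.0% of wt5 (12.0 to 12.1). The top 100 genes took 35.4%, 33.1%, 32.7% and 36.3%. Between 247 and 280 genes made up 50% of the counts of an oocyte, and between 2139 and 2207 genes made up 90%. The shares of the top 1000 genes were closer to each other, at 76.7 ± 0.328% (SD, n = 4). The oocytes thus differed most in the head of the distribution, where wt1 and wt5 were the most concentrated. Spin1 was the first gene of wt1 and wt4, Bcl2l10 of wt3 and Gdf9 of wt5. Of the genes in the top 100 of any oocyte, 70 of 135 were in the top 100 of all 4.

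**Figure D1:**
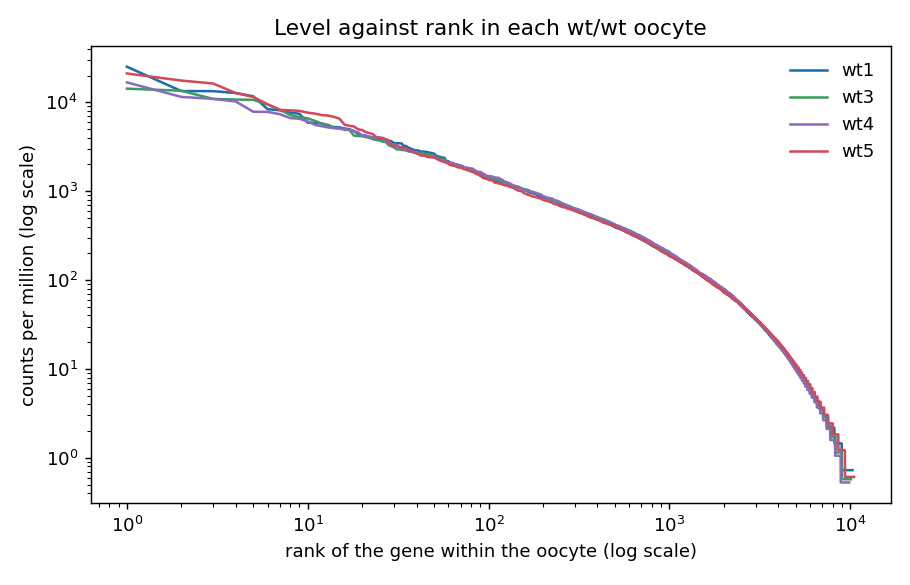
CPM (log scale) of each gene with a count against its rank within the oocyte (log scale), with 1 line for each wt/wt oocyte. The lines run together beyond the first ranks, and wt1, with Spin1 at 25109 CPM, starts highest.

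The 25 genes of highest mean CPM held 17.7 ± 1.58% of the counts (SD, n = 4) and all 25 were in the top 50 of every oocyte. Structural and secreted products of the oocyte stood among them. H1foo, the linker histone of oocytes, was at 13330, 10647, 7824 and 17547 CPM. Oosp1, which encodes an oocyte-secreted protein, was at 11667, 10732, 10931 and 8203 CPM. H1foo was highest and Oosp1 lowest in wt5. Plat, the tissue-type plasminogen activator, was at 8357, 7189, 6639.5 and 6526 CPM. Omt2a and Omt2b, neighbouring genes named for oocyte maturation, were at 3639, 4055, 3926 and 7996 CPM and 3855, 4169.5, 4039 and 8115 CPM. Both Omt2 genes were close in wt1, wt3 and wt4 and about 2-fold higher in wt5. Another oocyte-secreted factor, Bmp15, the partner of Gdf9, was at 4251, 2899, 3675 and 11471 CPM, with a mean of 5574 ± 3970.2 CPM over all 4 oocytes and 3608 ± 678 CPM without wt5.

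Among the 25 were genes known for the cell cycle or for protein turnover, described singly here and not tested as a group. Pttg1 encodes securin, which holds separase inactive until anaphase, and was at 5362, 6786, 6518 and 7076 CPM. Ccnb1, the cyclin B1 gene, was at 3831, 4879, 4082 and 3236 CPM. Cul1, the scaffold of SCF ubiquitin ligases, was at 4026, 5029, 5372 and 4365 CPM and the ubiquitin-conjugating enzyme gene Ube2d3 at 4074, 3601, 4218 and 4497 CPM. None of these 4 genes varied by as much as 2-fold between any pair of oocytes. Slbp encodes the protein that binds the stem-loop of histone mRNA and was at 7414, 6164, 5110.4 and 4961 CPM. Tcl1, a coactivator of the kinase Akt, was at 5878, 5569, 5064 and 7641 CPM. Bpgm, the bisphosphoglycerate mutase gene, was at 4762, 5735, 4736 and 7442 CPM. Tcl1 and Bpgm were highest in wt5 and Slbp in wt1. Mphosph6, an M-phase phosphoprotein gene, was at 5067, 4219, 4184 and 3066 CPM.

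The steadiest of the 25 was Slc45a3, a solute carrier gene, at 5226, 5078, 5554 and 5344 CPM, a coefficient of variation (CV, SD over mean) of 3.79%. Mat2b, the regulatory subunit of methionine adenosyltransferase, had a CV of 6.17% at 5453 ± 336 CPM. By contrast the CV was 71.2% for Bmp15 and 46.1% for Gdf9. Both of these CVs rest on wt5, since the SDs without it, given above, were a much smaller part of the means. E330034G19Rik, a protein-coding gene known by its clone name, was at 13361, 9427, 7348 and 9487 CPM and the long noncoding RNA gene C86187 at 5255, 3832, 4887 and 3208 CPM. Both were highest in wt1. Of the genes described here, 42.4% of the 49-base windows of Ccnb1 and 29.8% of those of Omt2a also occurred in transcripts of other genes. In the last 500 bases, nearest to the primed 3′ end, the shares were 0% and 54.4%. Counts of unique alignments are uncertain for genes with shared windows. Such shares are over all windows of a transcript, and that of the last 500 bases is added where it differs by 20 points or more. The transcript searched can be longer than that of the length scale, as for Ppia with 2853 and 1170 bases, so their ends need not coincide. The levels of genes whose exons overlap another gene are uncertain, on the same strand in any case and on the opposite strand because strand use in counting is not stated. Of the 25, the largest shares were 14.5% of the exon bases of C86187 and 13.5% of those of Slc45a3, the latter on the same strand. Smaller shares were 7.80% for Slbp, 4.75% for Cul1 and 0.808% for Ube2d3 on the opposite strand. On the same strand they were 3.58% for Obox2 and 3.11% for Obox1. For genes named below the smaller shares are not all given. Among genes named below, the share was 38.5% for Khdc3 on the same strand, and on the opposite strand 25.5% for Bak1, 22.8% for H3f3a, 22.0% for Gnas, 15.4% for Nsun5, 14.1% for Pou5f1, 12.5% for Ccna2, 10.7% for Fars2 and 10.7% for Cd9.

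**Figure D2:**
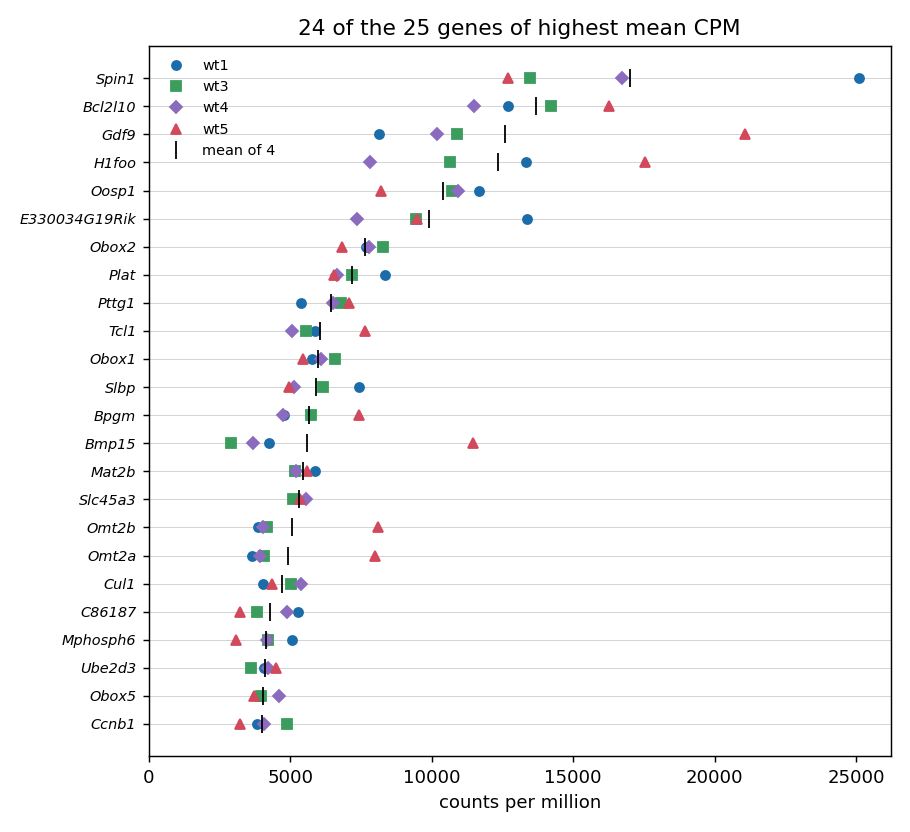
CPM (linear axis) of 24 of the 25 genes of highest mean, with 1 marker for each wt/wt oocyte and a black bar at the mean of 4. Gdf9 and Bmp15 lie far to the right in wt5, whereas the markers of Slc45a3 and Mat2b nearly coincide.

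Levels were compared between genes per length, as CPM per kb of annotated transcript with the length capped at 3 kb, for the 12757 genes with a count and a length. The median over these genes was 2.27 CPM per kb. Bcl2l10 was first at 11204 CPM per kb, followed by H1foo at 10996 and Oosp1 at 10683 CPM per kb. Spin1, whose annotated transcript of 4434 bases exceeds the cap, was at 5666 CPM per kb. The short transcripts of Bcl2l10, H1foo and Oosp1 thus passed that of Spin1 on the length scale. After Oosp1 came Gdf9 at 7012, Omt2b at 6863 and E330034G19Rik at 6416 CPM per kb. The remaining genes of the first 10 were Obox2 at 5239, Oosp3, another oocyte-secreted protein gene, at 4345, and Tcl1 at 4319 CPM per kb. This order rested in part on wt5. Without it Oosp1 was first at 11430.2, then Bcl2l10 at 10498 and H1foo at 9448 CPM per kb. E330034G19Rik (6506) and Spin1 (6146) then passed Omt2b (5471) and Gdf9 (5429.5), and Mphosph6 (4204) took the place of Tcl1 (3937) in the first 10.

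Cell-to-cell spread fell as the level rose. Among the 4013 genes with a mean of 20 CPM or more, the median CV was 30.1%, and counting error alone would give a median of 8.89%. The median CV was 38.9% in the 1419 genes between 20 and 50 CPM and 19.2% in the 158 genes at 1000 CPM or more. Without wt5 the median over the 4013 genes was 24.4%. Only 118 genes (2.94%) had a CV below that of counting error. All 4 oocytes lay within 2-fold of each other for 2016 genes (50.2%), and wt1, wt3 and wt4 did so for 2816 genes (70.2%). The common biological CV estimated across genes, which also includes variation from capture and amplification, was 0.392, and 0.332 without wt5. The median CV and the biological CV were thus lower without wt5, while a larger share within 2-fold is in part built into the comparison of fewer cells.

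**Figure D3:**
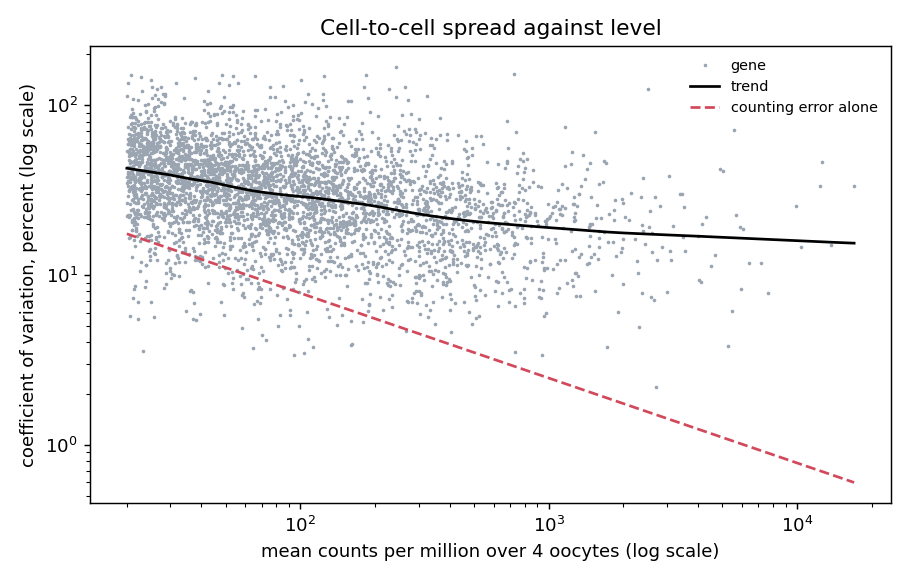
Coefficient of variation over the 4 wt/wt oocytes in percent (log scale) against mean CPM (log scale) for the 4013 genes at 20 CPM or more, with 1 point for each gene. The black line is the trend and the dashed line the variation that counting error alone would give, and the trend falls from left to right while staying above the dashed line.

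The 8 genes most spread for their level were all highest in wt5. Nlrp5, a maternal-effect gene of the subcortical complex of the egg, was at 191, 184, 147 and 2384 CPM. Ldhb, the heart-type lactate dehydrogenase subunit, was at 788, 1085, 987 and 7162 CPM. Mis18a, needed to load the centromeric histone CENP-A, was at 47.3, 37.9, 30.7 and 857 CPM. In each case wt1, wt3 and wt4 were close together and wt5 was several-fold above them. Tle6, which encodes a partner of Nlrp5, was at 69.8, 110.3, 109 and 771 CPM and Hist1h2bc, a clustered histone gene, at 16.0, 44.2, 38.1 and 398 CPM. Swi5, of homologous recombination, was at 113, 81.0, 66.1 and 653 CPM and Mtmr14, a phosphoinositide phosphatase gene, at 89.4, 161, 178 and 867 CPM. The β-tubulin gene Tubb2a was at 32.7, 75.9, 28.5 and 597 CPM, and 49.9% of its 49-base windows occurred in transcripts of other genes, as did 30.9% of those of Hist1h2bc (3.00% in its last 500 bases) and 27.7% of those of Ldhb. Without wt5 the mean of Nlrp5 was 174 ± 23.7 CPM and that of Ldhb 953 ± 151 CPM (SD, n = 3).

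The 8 least spread genes for their level had CVs from 2.20% to 5.71%. For all of them but Ddx3x the CV was below that of counting error, so their evenness is not distinguishable from counting. Ddx3x, an X-linked RNA helicase gene, was at 2789, 2734, 2646 and 2703 CPM. Lrrc42, which encodes a leucine-rich repeat protein, was at 104, 98.8, 104 and 108 CPM and Cndp1, the carnosine dipeptidase gene, at 115, 106, 115 and 114 CPM. No oocyte stood out for these genes. Phlpp2, a phosphatase that acts on Akt, was at 65.4, 66.1, 66.1 and 61.1 CPM and Kctd9 at 23.3, 22.4, 23.3 and 24.4 CPM. Efcab7 was at 22.2 ± 1.22 CPM and the phosphoinositide phosphatase gene Mtmr6 at 20.7 ± 1.18 CPM. The level of Nsun5, an RNA methyltransferase gene at 94.4 ± 3.18 CPM, is uncertain, since 27.8% of its windows, and 100% in its last 500 bases, occurred in another gene.

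Each oocyte was set against the median of the other 3, on the log2 scale. At 2-fold or more, 272 of the 4013 genes (6.78%) were higher and 346 (8.62%) lower in wt1. In wt3, 161 (4.01%) were higher and 162 (4.04%) lower, and in wt4 190 (4.73%) and 217 (5.41%). In wt5 there were 356 (8.87%) higher and 433 (10.8%) lower genes. At 4-fold the same counts were 29 and 59 for wt1, 10 and 7 for wt3, 14 and 29 for wt4, and 63 and 67 for wt5. Over all 4, wt3 was nearest to the rest and wt5 farthest. With wt5 left out of the comparison, 278 genes were higher and 360 lower in wt1, 221 and 166 in wt3, and 126 and 202 in wt4. The order then turned, with wt4 nearest to the rest (8.17% of genes 2-fold or more away), followed by wt3 (9.64%) and wt1 farthest (15.9%).

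The genes farthest from the other oocytes were named for each cell. In wt1, the mitochondrial carrier gene Slc25a16 was at 156, 15.5, 15.3 and 5.50 CPM, a log2 difference of 3.25. Kdm6a, an X-linked histone H3K27 demethylase gene, was at 211, 24.1, 24.8 and 3.67 CPM and the splicing factor gene Hnrnph1 at 219.6, 12.1, 44.9 and 25.7 CPM. All 3 were several-fold higher in wt1 than in any other oocyte. Lowest in wt1 were Ndufa6, a complex I subunit gene, at 0.727, 23.6, 12.7 and 75.1 CPM, and the kinase gene Akt1 at 10.9, 101, 98.8 and 53.1 CPM. Uchl1, a deubiquitinase gene, was at 44.4, 394, 481 and 179 CPM, and 18.1% of its exon bases overlap an antisense gene.

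For wt3, the glucosylceramide synthase gene Ugcg was highest by the rule at 517, 511, 88.3 and 81.9 CPM, although wt1 was as high. Map1b, of microtubule binding, was at 5.09, 48.8, 7.93 and 22.0 CPM and BC021891 at 10.9, 64.9, 24.3 and 1.22 CPM. The lowest in wt3 were C1galt1c1, a chaperone gene of O-glycosylation, at 29.8, 4.60, 34.9 and 24.4 CPM, and Gna13, a G protein subunit gene, at 32.7, 5.75, 14.8 and 34.8 CPM. Gid8, of a ubiquitin ligase complex, was at 37.1, 6.32, 21.7 and 33.0 CPM. In wt4, Osbpl11, of the oxysterol-binding family, was at 24.7, 132, 309 and 28.7 CPM. The nuclear receptor gene Nr6a1 was at 18.2, 105, 257 and 36.7 CPM and Fars2, a mitochondrial tRNA synthetase gene, at 9.45, 84.5, 106 and 14.7 CPM. For these 3 genes wt3 was the next highest, and wt1 and wt5 were low. The lowest in wt4 were ribosomal protein genes, with Rpl6 at 90.9, 40.8, 2.64 and 50.1 CPM, Rps27a at 90.9, 23.6, 3.17 and 52.5 CPM and Rpl13 at 58.2, 40.2, 2.64 and 33.0 CPM.

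In wt5, Gli3, a transcription factor of Hedgehog signalling, had 426, 633, 171 and 0 counts, or 309.8, 364, 90.4 and 0 CPM. It was the largest difference of any oocyte named here, a log2 difference of -8.01 with a prior count of 2. Mmp12, a matrix metalloproteinase gene, was at 36.4, 24.7, 20.1 and 0 CPM and Dap3, of the mitochondrial ribosome, at 18.2, 74.7, 76.6 and 4.28 CPM. Gli3 and Mmp12 had no count in wt5, which allows up to 1.83 CPM. Gene properties moved with the oocyte. In 5 equal groups by transcript length, the median log2 difference of wt5 was 0.21 in the shortest and -0.25 in the longest transcripts. By transcript GC content it was -0.31 in the lowest and 0.19 in the highest group, while that of wt1 was 0.13 in the lowest and -0.31 in the highest. By length the median log2 difference of wt4 was -0.07 in the shortest and 0.20 in the longest transcripts. The part of length and base composition in the genes named for each oocyte was not tested.

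Genes of the egg coat and of signals to the follicle were abundant, with median percentiles of 86.3 and 95.9 by CPM per kb among the genes with a count and a length. Their sums depended on wt5, and without it the median percentile of the egg coat genes was 81.5. The 3 zona pellucida genes encode the coat around the egg, and Zp3, the receptor for sperm in the textbook model, was at 147, 188, 224 and 605 CPM. Zp2 was at 64.0, 58.6, 45.5 and 195 CPM and Zp1, which cross-links the filaments, at 32.7, 47.7, 68.2 and 21.4 CPM. Zp2 and Zp3 were highest and Zp1 lowest in wt5. The list summed to 244, 295, 338 and 821 CPM, or 292 ± 47.1 CPM without wt5. The list of signals to the follicle summed to 12699, 13941, 14183 and 32818 CPM, or 13608 ± 796 CPM without wt5. Gdf9 held 68.3% of it. Kit, the receptor for a granulosa cell ligand, was at 317, 133, 283 and 259.6 CPM and the gap junction gene Gja4 at 10.9, 16.1, 31.2 and 4.28 CPM, while Fgf8 had no count.

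The subcortical maternal complex is a multiprotein assembly under the egg membrane that early cleavage needs. Its 6 genes all had counts in 4 of 4 oocytes, as had 60.5% of all genes with a count, with a median percentile of 92.9 on the same scale, or 86.3 without wt5. Their sum was 3234, 1609, 2274 and 4009.7 CPM, or 2373 ± 817 CPM without wt5. Zbed3 was at 2789, 1162, 1929 and 279 CPM, Ooep at 105, 86.2, 38.1 and 409 CPM and Padi6 at 58.2, 60.9, 48.6 and 150.3 CPM. Nlrp5, Tle6, Ooep and Padi6 were highest in wt5, whereas Zbed3 was lowest there. Khdc3 was the least abundant per kb, at 21.1, 5.75, 2.11 and 15.9 CPM, with 42.9% of its windows in other transcripts but 0% in its last 500 bases. Of the other Nlrp genes of oocytes, all 11 had counts in 4 of 4 oocytes and a mean of 20 CPM or more, against 31.2% of all genes with a count. Per kb, Nlrp4f was the most abundant, at 771, 1236, 1142 and 582 CPM, and Nlrp4c the least, at 13.8, 23.0, 23.8 and 21.4 CPM. Nlrp14 was at 413, 359, 443 and 1506 CPM, highest in wt5, while the sums of this list differed little, at 3035, 3322, 3924 and 3759 CPM.

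The Obox homeobox genes and the oogenesins, leucine-rich repeat proteins of oocytes, summed to 20935, 21387, 21838 and 17579 CPM. Obox2 was at 7666, 8278, 7793 and 6840.4 CPM, Obox1 at 5750.5, 6587, 6076 and 5437 CPM and Obox5 at 3916, 3967, 4586 and 3706 CPM, with CVs of 7.81%, 8.24% and 9.36%. Oog3 was at 3234, 2241, 2934 and 1219 CPM, with wt5 lowest. Oog2 was at 185 ± 20.7 CPM and Oog4 at 152 ± 42.2 CPM (SD, n = 4). Oog1 had no count, but 88.8% of its 49-base windows occurred in other transcripts, so its level is uncertain. The corresponding shares were 63.7% for Obox2, 59.9% for Obox1 and 45.7% for Oog2, and the levels of these paralogs are uncertain. Germline transcription factors were scarce by comparison, with a median percentile of 58.0 over the 7 of 8 with a count. Lhx8, of early oocyte growth, was at 14.5, 33.3, 23.3 and 35.4 CPM and Nobox, a homeobox factor of follicle formation, at 14.5, 0.575, 3.70 and 11.0 CPM. Sohlh1, a basic helix-loop-helix factor of the same stage, had no count.

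Cell cycle regulators covered a wide range. Entry into and arrest within meiotic M phase depend on Cdk1 bound to cyclin B. Ccnb1 was at 1609.9 CPM per kb, whereas Cdk1 itself was at 4.18 CPM per kb. Cdk1 was at 24.0, 15.5, 2.11 and 8.55 CPM, lower than Ccnb1 in all 4 oocytes. The cyclin gene Ccna2 was at 929 ± 85.0 CPM, Ccnb2 at 267 ± 69.6 CPM, and Wee2, the oocyte kinase that inhibits Cdk1, at 52.9 ± 23.1 CPM. Mos, the kinase that starts the cascade behind arrest in metaphase II, was at 252, 757, 417 and 461 CPM, and its substrate gene Map2k1 at 1017, 1052, 1049.7 and 826 CPM. Fbxo43 encodes Emi2, the inhibitor of the anaphase-promoting complex that holds the arrest, and was at 509.8, 349, 451 and 339 CPM. Map2k1 and Fbxo43 varied less than Mos, which was lowest in wt1 and highest in wt3. Of the genes that hold meiosis at prophase through cyclic AMP, Gnas, the stimulatory G protein gene, was at 27.6, 111, 84.6 and 396 CPM, while Gpr3, the receptor that drives it, was at 1.45, 0, 3.70 and 0.611 CPM. Pde3a, the phosphodiesterase gene of oocytes, had no count.

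Spindle and checkpoint genes had a median percentile of 86.9, and 14 of 17 had a mean of 20 CPM or more, against 31.2% of all genes with a count. Bub1b, a checkpoint kinase gene, was at 1675, 1586, 2048 and 1188 CPM and its partner Mad2l1 at 977, 1323, 1409.6 and 799.6 CPM. Aurkc, the germ cell Aurora kinase gene, was at 1364, 881, 787 and 1204 CPM, but 64.2% of its windows occurred in other transcripts. All 3 were well counted in every oocyte. Among cohesin genes, Rad21, a mitotic subunit, and Smc3, shared by mitotic and meiotic cohesin, were at 566 ± 173 CPM and 236 ± 78.2 CPM, but the mitotic subunit Smc1a was at 4.36, 11.5, 5.81 and 4.89 CPM. The meiotic subunits Rec8, Smc1b and Rad21l had no count, and Stag3 had 1 count in wt3. Genes of early meiotic prophase differed in level. Sycp2, of the synaptonemal complex, was at 177, 271, 228 and 147 CPM and Syce2 at 92.4, 108, 169 and 109 CPM, whereas Spo11, which makes the meiotic breaks, had no count.

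Genes of fertilization were led by Astl, which encodes the protease ovastacin that cleaves Zp2 after fertilization, at 595, 394, 468 and 1491 CPM. Itpr1, the calcium release channel of egg activation, was at 233, 166, 228 and 167 CPM. Folr4, the egg receptor Juno, was at 26.2, 31.0, 22.2 and 17.7 CPM and Cd9, of sperm and egg fusion, at 15.3, 5.75, 6.87 and 9.77 CPM. Astl was highest in wt5 and the fusion genes were at 18.8 and 7.67 CPM per kb, against 310.0 for Astl (204 without wt5). The list summed to 912, 646, 781 and 1796 CPM, or 779.8 ± 133 CPM without wt5.

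Genes that store, translate and remove maternal mRNA were mostly but not all abundant. Of the 16 genes of storage and translation, 12 had a mean of 20 CPM or more, and 15 had counts in all 4 oocytes. Of the 15 genes of deadenylation and decay, 10 had a mean of 20 CPM or more, against 31.2% of all genes with a count. Zar1, which binds and stabilises maternal transcripts, was at 1330, 1203, 1413 and 2850.2 CPM and Lsm14a, of translational repression, at 1995, 2004, 2225 and 1586 CPM. Dazl, a translational activator of maturation, was at 1214, 1072, 933 and 718 CPM. Zar1 was highest and Lsm14a and Dazl lowest in wt5, and 30.9% of the windows of Zar1 occurred in other transcripts, but 1.60% in its last 500 bases. Cpeb1, which reads cytoplasmic polyadenylation elements, was at 89.4, 132, 84.6 and 269 CPM, and Ybx2, the germ cell Y-box protein gene, at 18.9, 21.8, 13.2 and 43.4 CPM. Over the 16 genes the median percentile was 86.9. Btg4, the adaptor that brings the deadenylase to maternal mRNA, was at 1494, 2485, 2069 and 2357 CPM. Cnot7, a catalytic subunit, was at 2478, 2869, 3120.5 and 2420.2 CPM and Cnot6l at 1210, 1467, 1479 and 1158 CPM. These deadenylation genes varied less than 2-fold in all 4 oocytes. Dcp1a, of decapping, was at 384, 1861, 1976 and 442 CPM, high in wt3 and wt4 and low in wt1 and wt5. Of the small RNA genes, Dicer1 was at 519.9, 585, 467 and 462 CPM, while Ago2, the slicing Argonaute gene, was at 1.45, 0.575, 1.06 and 0.611 CPM.

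Chromatin genes included the study's own targets. Kdm1a was at 50.9, 24.7, 44.9 and 16.5 CPM, lowest in wt5. Its homolog Kdm1b, needed to set maternal imprints, was at 567, 556, 336 and 416 CPM. On the length scale Kdm1b was at 156 and Kdm1a at 11.4 CPM per kb, but 9.25% of the windows of Kdm1b, and 91.4% in its last 500 bases, occurred in another gene, and 9.19% of its exon bases overlap the opposite-strand gene Dek. The cofactor gene Rcor1 had 1 count, in wt3. Of the 12 genes of the Kdm1a list, 9 had counts in all 4 oocytes, against 60.5% of all genes with a count, and the median percentile was 58.9. Histone lysine methylation enzymes were more abundant, with a median percentile of 79.3 over the 17 of 19 with a count. The Polycomb genes Ezh2 and Eed were at 1175, 1344, 1655 and 948 CPM and 439.9, 402, 369 and 404 CPM. Suv39h1, a histone H3K9 methyltransferase gene that the study assayed, was at 3.64, 6.32, 0.529 and 1.83 CPM, near the floor, and 14.6% of its exon bases overlap another gene.

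DNA methylation genes differed widely in level. Tet3, the dioxygenase that oxidises methylcytosine in the zygote, was at 2169, 1152, 1647 and 533 CPM, lowest in wt5. Dnmt1, the maintenance methyltransferase, was at 407, 242, 231 and 842 CPM and Uhrf1, its recruiter, at 255, 379.8, 275 and 633 CPM. Dnmt1 and Uhrf1 were highest in wt5. Dnmt3a, which sets imprints during growth, was at 22.5, 11.5, 21.1 and 22.6 CPM, and Tet2 had no count. Dppa3, which shields maternal methylation, was at 1115, 1138, 1487 and 1219 CPM, and Trim28, the corepressor at imprints, at 457, 710.2, 633 and 545 CPM. Atrx, an X-linked chromatin remodeller gene, was at 312, 239.6, 299 and 257 CPM. The 7 genes of the imprint list all had counts in 4 of 4 oocytes, as had 60.5% of all genes with a count.

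Histone genes were divided by type. The replacement histone H3.3 genes H3f3b and H3f3a were at 2875, 2451, 2528 and 2516 CPM and 1180.2, 1194, 1020.1 and 2326 CPM. H3f3a was highest in wt5, and 30.4% of its windows occurred in other transcripts, but 0% in its last 500 bases. H2afz, the H2A.Z gene, was at 91.6, 61.5, 63.4 and 116 CPM, with 69.9% of its windows in other transcripts. Of the 68 clustered histone genes, whose mRNA mostly lacks a poly(A) tail, 63 had no count, beside 46.5% of all genes of the table. A median of 55.5% of the windows of those 63 genes occurred in other transcripts, so their levels are uncertain. Hist1h2bc held 99.5% of the list, which summed to 16.7, 45.4, 38.6 and 398 CPM, with a mean of 33.6 CPM without wt5. Among pluripotency factors, Sall4 was at 1918, 1481, 1354 and 1239 CPM, Pou5f1 at 22.5, 16.7, 11.6 and 32.4 CPM and Nanog at 69.8, 98.3, 25.9 and 109 CPM. Sox2 was at 7.27, 6.90, 3.17 and 1.83 CPM and Klf4, which the study also assayed, at 8.73, 8.62, 4.23 and 1.22 CPM. On the length scale Sall4 was at 499 CPM per kb, against 34.3 for Nanog and 2.33 for Sox2. In the Bcl2 family, Bcl2l10 held 99.1% of the counts, the proapoptotic Bcl2l11 was at 64.7, 139, 92.0 and 105 CPM, and Bak1, an effector of apoptosis, had no count.

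Metabolic and housekeeping genes differed in how even they were. The glycolysis list summed to 913, 1208, 1126 and 7345 CPM, of which Ldhb held 94.6%, and to 1082 ± 152 CPM without wt5. Pgam1 was at 79.3, 45.4, 52.9 and 86.1 CPM and Gapdh at 5.09, 31.6, 29.1 and 29.3 CPM. Gapdh was low in wt1 and even in the other oocytes. Eno1 had no count, but 72.5% of its windows occurred in other transcripts, so its level is uncertain. Of other reference genes used by the study, Hprt was at 306, 269, 295 and 141 CPM, lowest in wt5, and Ppia at 93.8, 43.7, 35.4 and 91.0 CPM, higher in wt1 and wt5. Of the windows of Gapdh and Pgam1, 28.0% and 41.5% occurred in other transcripts. The share in the last 500 bases was 0% for Pgam1 and 90.2% for Ppia, lower and higher than over the whole of these transcripts. The respiratory chain list summed to 2086, 3007, 2487 and 4384 CPM, or 2526 ± 462 CPM without wt5, and Cox6c, a cytochrome oxidase subunit gene, was at 84.4, 118, 122 and 644 CPM. Atp5b, the ATP synthase β subunit gene, was at 529, 464, 454 and 627 CPM, a CV of 15.3%. Of the 25 genes of this list with a mean of 20 CPM or more, 12 were 2-fold or more higher in wt5 than the median of the others and 0 were 2-fold lower, beside 8.87% and 10.8% of all 4013 genes. In wt1, 8 of the 25 were 2-fold or more lower and 0 higher, beside 8.62% and 6.78% of all genes. Since such a mean includes the oocyte compared, the counts were repeated among genes with a mean of 20 CPM or more over the other 3 oocytes. There 9 of 20 were higher in wt5 and 9 of 26 lower in wt1, beside 6.49% and 9.79% of all such genes. Within the shortest of 5 groups by transcript length, 10 of 19 were higher in wt5, beside 15.6% of the other genes of that group. These length groups used the mean that includes wt5, so members could pass 20 CPM through wt5, where they were high. No conclusion is drawn from the count in that group. The tubulin list summed to 934, 1262, 959.8 and 2222 CPM, or 1052 ± 182 CPM without wt5, and Tubb3 was the most abundant per kb, at 562, 777, 575 and 783 CPM.

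Cytoplasmic ribosomal protein genes summed to 5397, 5005, 3172 and 6261 CPM. The list was lowest in wt4, where 38 of its 62 genes with a mean of 20 CPM or more were 2-fold or more below the median of the others, against 5.41% of all 4013 genes. By the same measure 24 of the 62 were higher and 2 lower in wt1, against 6.78% and 8.62% of all genes, and 10 were higher and 0 lower in wt5, against 8.87% and 10.8%. Among genes with a mean of 20 CPM or more over the other 3 oocytes, 41 of 65 were lower in wt4, 20 of 57 higher in wt1 and 10 of 62 higher in wt5. The shares of all such genes were 6.56%, 5.48% and 6.49%. Since wt4 and wt5 differed by transcript length, members among the shortest of 5 length groups were set beside the other genes of that group. In wt4, 63.0% of the 54 members were lower against 6.71% of the other genes, and in wt1 38.9% were higher against 5.10%. The length groups used the mean over all 4 oocytes, so members could pass 20 CPM through an oocyte where they were high. In wt5 the shares that were higher were alike, at 16.7% and 16.5%, but 0% of the members were lower against 8.59% of the other genes. No conclusion is drawn from the shares in wt1 and wt5. The members were still shorter than the rest of the group, with median lengths of 786 and 1358 bases. The list's median log2 differences were 0.77, -0.23, -1.26 and 0.39, beside -0.06, 0.04, 0.08 and -0.10 over all genes at 20 CPM or more. Rps27l was the most abundant per kb at 223, 856, 644 and 781 CPM, and Rps15a was at 369, 779.8, 555 and 432 CPM. Many ribosomal protein genes have processed copies, and 64.5%, 40.8% and 29.0% of the windows of Rpl6, Rps27a and Rpl13 occurred in other transcripts, and in their last 500 bases 38.6%, 60.6% and 26.4%, so that these levels are uncertain. Proteasome genes summed to 2637, 1789, 1883 and 3042 CPM, with the subunit gene Psma2 at 1542, 908, 1095 and 2057 CPM. F-box genes, which give SCF ligases their substrates, summed to 13925, 14272, 14469 and 20277 CPM, highest in wt5, or 14222 ± 276 CPM without it. The most abundant per kb were the oocyte genes Fbxw28 at 2369.9, 2270.4, 2265 and 3838 CPM, Fbxw14 at 1719, 1929.6, 1841 and 3132 CPM and Fbxw24 at 1446, 1718, 1650.1 and 2602 CPM, and 66.6% and 68.2% of the windows of Fbxw28 and Fbxw14 were shared. The widely expressed F-box gene Fbxo11 was at 749, 909.6, 1004 and 848 CPM.

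**Figure D4:**
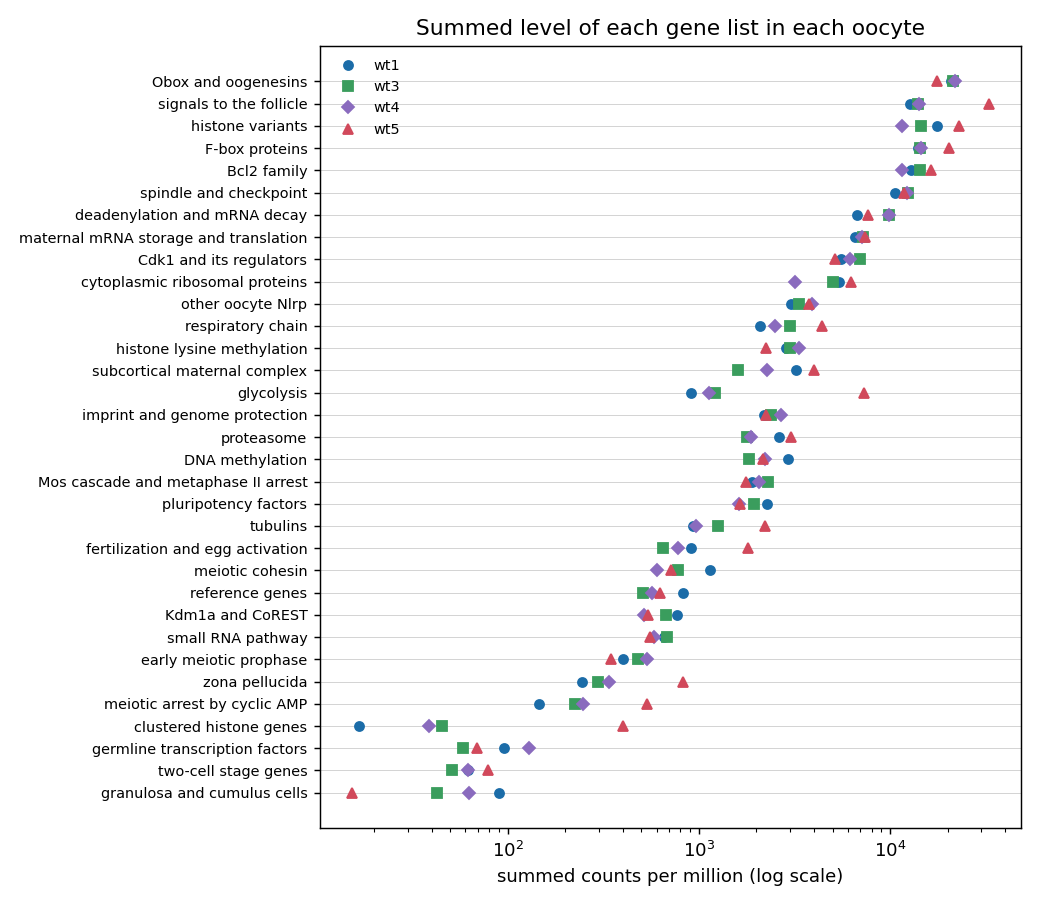
Summed CPM (log scale) of each gene list, with 1 marker for each wt/wt oocyte and lists ordered by their mean. The lists of glycolysis, clustered histone genes, zona pellucida and signals to the follicle have wt5 to the right of the other 3 markers, and granulosa and cumulus cell genes have it to the left.

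Most listed genes of other cell types had no count, while Cyp19a1 was well above the floor. Of 18 granulosa and cumulus cell genes, 13 had no count in any oocyte, beside 46.5% of all genes of the table, among them Amh, Fshr, Foxl2, Lhcgr and Inha. The list summed to 89.4, 42.5, 62.4 and 15.3 CPM, and Cyp19a1, the aromatase gene, held 79.0% of it at 69.8, 27.6, 56.6 and 11.6 CPM. Cyp19a1 was lowest in wt5. Kitl, the ligand of Kit, and Has2, of cumulus expansion, also had counts in all 4 oocytes, at 16.0, 6.90, 3.17 and 2.44 CPM and 2.91, 8.04, 1.59 and 1.22 CPM, and the 2 remaining genes had 1 and 2 counts. Any part of these transcripts in the position of wt5 was not tested. Of 5 blood cell genes, Cd68 alone had counts, at 1.45, 0.575, 3.17 and 0.611 CPM, and Ptprc, Hba-a1, Hbb-b1 and Lyz2 had none. The level of Hba-a1 is uncertain, since 67.7% of its windows, and 88.2% in its last 500 bases, occurred in other transcripts. Of 12 genes of other tissues, Ins2 alone had counts, at 2.30 CPM in wt3. The 6 listed Y-linked genes summed to 0.727, 1.15, 0 and 0.611 CPM. Of 6 genes known for the two-cell stage, Tcstv1 was the most abundant per kb, at 50.2, 36.2, 53.4 and 66.6 CPM, while Zfp352 had no count and Zscan4c was at 1.45, 0, 0.529 and 0 CPM. The level of Zscan4c is uncertain, as 85.8% of its windows occurred in other transcripts.

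Protein-coding genes held 98.2 ± 0.0551% of the counts (SD, n = 4) and long intergenic noncoding RNA genes 1.03 ± 0.0471%, by the GENCODE types of matched genes. Chromosome 6 held 8.54 ± 0.608% of the counts and chromosome 9 8.44 ± 0.701%. Both shares were highest in wt5, at 9.43% and 9.48%, against at most 8.41% and 8.22% in the other oocytes. These chromosomes carry the genes H1foo and Bcl2l10 respectively. The X chromosome held 2.83 ± 0.257%, led by Bmp15. Its 120 genes with a mean of 20 CPM or more had medians of 29.8, 26.4, 25.2 and 29.6 CPM per kb. The 3874 autosomal genes had 32.0, 32.9, 32.6 and 31.6 CPM per kb. They were thus a little above the X in all 4 oocytes, but this did not hold over all genes with a count. There the medians of X-linked and autosomal genes were 2.18 and 2.11 CPM per kb in wt1, equal in wt3 at 2.11, and lower for the X in wt4 and wt5.

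The 200 genes of highest CPM per kb had shorter transcripts, with a median length of 1897.5 bases against 2957 over all genes with a count and a length. Since the level per kb is divided by length, this is partly built into the ranking. Promoters, taken as 250 bases before to 50 bases after the start in RefSeq (GRCm38.p6), were found for 170 of the 200 genes. Motifs were searched on both strands. The letters GGGCGG were in 55.3% of these promoters against 35.9% of all 27025 promoters, and CCAAT in 45.3% against 37.9%. By contrast TATAAA was in 5.29% against 14.2%. The E-box CANNTG was in 65.9% against 72.1%, TAATTG in 6.47% against 8.15%, and TGACGTCA in 1.18% against 1.88%. The ratio of observed to expected CpG had a median of 0.787 in these promoters and 0.389 over all. The set of all promoters includes those of genes without a count here, as only 10189 genes with a count and a length had a promoter. These contrasts thus do not set the most abundant genes apart from other counted genes. These are counts of letters, and no binding was measured.

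Promoter windows of gene families that were abundant here are shown to let them be compared. Each line gives 30 bases on the strand of the gene, 5′ to 3′, from RefSeq (GRCm38.p6), with the CANNTG nearest before the start in capitals. The first pair is Obox1 (chr7:15547172-15547201, plus strand) and Obox5 (chr7:15750273-15750302, plus strand), both among the 25 most counted genes. The window of Obox2 (chr7:15388648-15388677, plus strand), the most abundant of the 3 per kb, is unlike them, and the promoter of Obox3 had no CANNTG before the start. The oogenesin windows are Oog2 (chr4:144190662-144190691, plus strand), Oog3 (chr4:144162676-144162705, minus strand) and Oog4 (chr4:143450348-143450377, minus strand), whose levels were 96.4, 1290.5 and 76.9 CPM per kb. Thus nearly the same letters stood before genes of unlike level. The last lines are Zp3 (chr5:135980038-135980067, plus strand), H1foo (chr6:115944853-115944882, plus strand) and Oosp1 (chr19:11691082-11691111, minus strand), at 220, 10996 and 10683 CPM per kb, with Zp3 at 141 without wt5. The CANNTG is in 72.1% of all promoters, so its presence is a description only.
Obox1: atttgaatattgCAAGTGggtggagccagc
Obox5: atttgaatattgCAAGTGggtggagccaac
Obox2: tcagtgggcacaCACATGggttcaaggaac
Oog2: aaagggatggttCAGCTGaaaactatataa
Oog3: aaagggaggcttCAGCTGaaaattatataa
Oog4: aaagggagggttCAGCTGaaaggtatatag
Zp3: gcagagggaattCAGGTGggagggtgggcc
H1foo: ctttcggctgctCAGGTGctaggcatgttg
Oosp1: ccacctgcaggtCATCTGctccagcacata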

How the data were processed

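The data are raw read counts for 24064 RefSeq genes in 4 wt/wt oocytes. By the labels and the study's methods, the authors filtered reads, aligned them to mm10 with TopHat 2.0.6, kept unique best alignments and deposited counts per gene from HTSeq without normalization. The columns of the other 10 oocytes were not used. Counts were divided by library totals (1375187 to 1892015) to give counts per 1000000 (CPM). Lengths came from GENCODE, matched for 22837 genes by symbol and 836 by an older symbol, with 391 unmatched, and were capped at 3 kb. The common biological coefficient of variation came from edgeR 4.0.16 with an intercept only. Alternatives used edgeR's TMM factors, DESeq2 1.42.0 size factors, other floors, thinned counts and each oocyte left out. Code was tested on simulated data. No groups were tested against each other, since 1 group is described, and Dixon's ratio served only to mark single oocytes. The members and the 36 gene lists were chosen with earlier results of these data known. Named genes are 24 of the 25 of highest CPM (1 is not reported here), the 10 of highest CPM per kb, the 8 most and 8 least spread for their level, the 3 highest and 3 lowest of each oocyte (mean of 20 CPM or more), members that lead, end or define a list, and the study's own genes. Oas1f, Smc1a, Kitl, Has2, Obox3 and the counts of 1 were chosen after their values were seen. Percentiles are among genes with a count and a length, so list members at 0 have none.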

Additional observations from a re-analysis of the deposited data

Results flagged for a closer look

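For each reported level over the 4 oocytes, the gap of the highest or lowest oocyte to its neighbour was divided by the whole range. A share above Dixon's 95% critical value for 4 values set an oocyte apart in 40 of 201 totals, sums and genes with a count, and wt5 was that oocyte in 28. Chance sets apart about 1 in 20 such groups if the values are normal, which CPM need not be, and list sums are not independent of their members. Genes named for their spread, for their distance from the other oocytes or as counted in 1 oocyte pass partly by that choice. Of the 117 other named genes with a count, 15 passed, 13 of them with wt5. Some of these genes were named for a mean that includes wt5, so a high value there could help to name them. No conclusion is drawn from their number. Over the 4013 genes with a mean of 20 CPM or more, 295 (7.35%) passed, 121 of them with wt5 highest and 33 with wt5 lowest.

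Among list sums, wt5 was set apart as highest for zona pellucida (0.837), signals to the follicle (0.926), glycolysis (0.954), F-box proteins (0.914) and clustered histone genes (0.925). The sum of genes of other tissues was set apart in wt3 (1), from Ins2 (1) alone. In the egg coat and follicle signals, wt5 was highest for Zp2 (0.876), Zp3 (0.831) and Bmp15 (0.842). The maternal-effect genes Nlrp5 (0.980), Tle6 (0.942), Padi6 (0.879), Nlrp14 (0.926) and Zar1 (0.873) were also highest there. So were Omt2a (0.905), Omt2b (0.926), Fbxw14 (0.851) and Fbxw28 (0.934).

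Of metabolic and structural genes, wt5 was highest for Ldhb (0.954), Cox6c (0.934), Tubb2a (0.917), Hist1h2bc (0.926) and H3f3a (0.867). The same held for Mis18a (0.980), Swi5 (0.919) and Mtmr14 (0.886), which like Nlrp5, Tle6, Ldhb, Tubb2a and Hist1h2bc were named for their spread, and for Oas1f (1), named as counted in wt5 alone. Conversely wt5 was lowest for Map2k1 (0.845). The oocyte wt1 was highest for Slc25a16 (0.934), Kdm6a (0.898) and Hnrnph1 (0.842), named for that distance, and lowest for Gapdh (0.904). The oocyte wt3 was lowest for Dnmt3a (0.869). The ratio also passed for Phlpp2 (0.873), Mtmr6 (0.904) and Cndp1 (0.889), but their CVs of 3.72%, 5.71% and 3.78% were below the 9.71%, 17.2% and 7.36% of counting error, so no oocyte can be told apart by them. Single counts set apart wt3 for Rcor1 (1) and Stag3 (1), and wt4 for Figla (1). Their cause was not tested.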

How the results depend on the processing

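Genes near 3 counts are limited by depth. The median coefficient of variation was 68.9% over every gene with a count, against 30.1% at 20 CPM or more. It was 23.9% at 100 CPM or more. Leaving out each oocyte in turn gave 24.3% to 31.3%, lowest without wt5. The common biological CV of 0.392 became 0.335 at 100 CPM or more and 0.524 over every gene with a count. It was 0.332 to 0.430 with each oocyte left out, lowest without wt5. Per kb of length, the top 10, 100 and 1000 genes held 15.3%, 40.4% and 79.2% of the total, against 10.6%, 34.4% and 76.7% by counts. The correlation between oocytes averaged 0.928 by Pearson on log2 CPM, against 0.867 by Spearman. Without wt5, an alternative chosen after seeing the data, the genes 2-fold higher in wt4 fell from 190 to 126. With the mean of 20 CPM taken over the other 3 oocytes, chosen after seeing the data too, each count of genes 2-fold away was within 1.5 times its value. The cause of these shifts was not tested. The mean CPM of the named genes moved by less than its SD under TMM factors and DESeq2 size factors. Leaving out 1 of 4 values cannot move a mean by its SD, so that comparison says nothing about stability, and the mean of Nlrp5 fell from 727 to 174 CPM without wt5. Median percentiles moved by more than their SD over oocytes for 13 of 33 lists without the length term and for 5 of 33 with the full length.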
